A study of Mus musculus with 4 samples.

Results

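The genes described here encode general splicing factors other than the ESRPs: SR proteins, hnRNPs and tissue regulators of alternative splicing. The list held 38 symbols, each measured by the probe sets that the array annotation pairs with that symbol alone, and each gene was represented by its brightest probe set over the 4 arrays. Of the 38, 37 had such a probe set, and 34 passed the filter on dim probe sets and were tested among 11956 genes. Srsf7 had no probe set of its own under this rule and was not analysed here. Rbfox1, Khdrbs3 and Nova1 lay below the filter, a normalized signal of 19.4. The RNA came from 4T1 cells, a mouse mammary carcinoma line grown in serum-containing RPMI medium under normoxia, and was hybridised to one-colour Affymetrix arrays. The groups were 2 arrays of CD44v8-10-positive and 2 arrays of CD44v8-10-negative 4T1 cells, picked by hand under a microscope. CD44v8-10 is an isoform of CD44, a hyaluronan receptor, that keeps variant exons, so the comparison bears on whether the mRNAs of the splicing machinery differed between cells that carry this form and cells that do not.

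Pre-mRNA splicing is carried out by the spliceosome, and auxiliary RNA-binding proteins decide which optional exons it uses. SR proteins bind exonic enhancers through RNA recognition motifs and recruit the spliceosome through arginine- and serine-rich domains, while many hnRNPs bind silencers and favour skipping. Tissue regulators such as RBFOX, MBNL, CELF, QKI and NOVA proteins act on top of these, with effects that depend on where they bind relative to the exon. Exons of Cd44 are a classic case: SAM68 (Khdrbs1), TRA2-beta and YB-1 have been linked to inclusion of variant exons, and hnRNP A1, hnRNP M and PCBP1 to their skipping, mostly in human cells, in part in opposition to the epithelial regulator ESRP1.

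The promoters of 3 genes are printed because they stand for the results that follow: Mbnl2 had the lowest difference of the tested genes, Ptbp1 was 1 of 2 with all positive above all negative signals, and Nova1 lay below the filter. Each window runs 5′ to 3′ from 250 bases before to 50 after the annotated start (RefSeq, GRCm38.p6), with every CG in capitals. The Mbnl2 window is chr14:120275419-120275718 on the plus strand, that of Ptbp1 chr10:79854182-79854481 on the plus strand, and that of Nova1 chr12:46818718-46819017 on the minus strand.
Mbnl2 promoter: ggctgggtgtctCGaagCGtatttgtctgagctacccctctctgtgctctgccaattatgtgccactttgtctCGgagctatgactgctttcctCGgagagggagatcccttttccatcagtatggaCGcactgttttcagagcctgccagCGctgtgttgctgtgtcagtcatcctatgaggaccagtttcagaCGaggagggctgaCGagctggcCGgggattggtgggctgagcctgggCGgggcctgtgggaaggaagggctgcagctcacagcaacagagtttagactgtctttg
Ptbp1 promoter: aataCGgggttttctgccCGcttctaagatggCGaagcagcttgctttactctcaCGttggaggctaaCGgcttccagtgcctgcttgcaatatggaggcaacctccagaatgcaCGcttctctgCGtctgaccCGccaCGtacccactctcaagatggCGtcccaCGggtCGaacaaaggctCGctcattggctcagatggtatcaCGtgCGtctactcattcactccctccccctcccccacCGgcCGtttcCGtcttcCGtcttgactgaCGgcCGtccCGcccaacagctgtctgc
Nova1 promoter: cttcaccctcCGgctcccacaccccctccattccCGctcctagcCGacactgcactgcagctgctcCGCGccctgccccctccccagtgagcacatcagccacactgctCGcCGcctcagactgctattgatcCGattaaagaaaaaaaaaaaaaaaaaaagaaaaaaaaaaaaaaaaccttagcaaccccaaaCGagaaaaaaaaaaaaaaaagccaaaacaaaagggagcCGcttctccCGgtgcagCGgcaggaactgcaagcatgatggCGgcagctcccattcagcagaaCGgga
The dinucleotide CG, which reads alike on both strands, occurred 10 times in the Mbnl2 window, 22 times in that of Ptbp1 and 14 times in that of Nova1. Among all 32851 windows of the table, 43.5%, 23.1% and 36.3% held at least as many. Windows were matched for 35 of the 38 genes by symbol. The richest window of 26 of these genes (74.3%) held at least 20 CG, against 28.8% of all genes in the table.

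No splicing factor passed the test between CD44v8-10-positive and CD44v8-10-negative cells. Of the 34 tested, 16 lay above 0 and 18 below, and their log2 differences ran from -0.70 (Mbnl2) to 0.33 (Rbm24), with a median of -0.0079 where that of all genes was 0.028. The mean signal of Rbm24 was above the filter level in positive cells only, so its place as the highest supports nothing. Differences are positive minus negative on the log2(signal + 16) scale, which understates the change of dim genes. By limma (two-sided, Benjamini-Hochberg over 11956 genes) 0 of 34 passed an adjusted p of 0.05, against 9 genes or 0.0753% of the whole table, and the lowest adjusted p of a member was 0.919. At an unadjusted p under 0.05 by limma, 3 members were lower and 0 higher, or 8.82%, where the background was 4.45% in either direction, 1.76% lower and 2.68% higher. The groups did not overlap in 9 members, 7 lower and 2 higher, or 26.5% of those tested, against 32.3% of all genes, of which 13.8% were lower and 18.5% higher.

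At the brightest probe set, the size of any difference was bounded for most of these genes. The intervals do not cover disagreement between probe sets of a gene. Other probe sets gave 1.14 for Hnrnpk, 0.92 for Ptbp1 and -0.73 for Srrm1, each outside the interval of the brightest one. Celf1, Hnrnpa1, Hnrnph1, Mbnl2, Ptbp2, Rbfox2, Rbm47, Srrm2, Srsf2, Tia1 and Tra2a also had other probe sets outside that interval. For all of these genes the interval bounds the difference of the brightest probe set only. The 95% interval of the difference lay within 1 log2 unit of 0, a 2-fold change, for 30 of 34 members, where the background was 76.7% of genes. It lay within a 1.5-fold change for 21 members, or 61.8%, against 26.6% of all genes. The median standard error was 0.18 for the members and 0.24 for all genes. The members were also brighter, with a median signal of 2558 against 277 for all genes, and the fit lets the variance follow intensity. How far this brightness accounts for their narrower intervals and smaller differences was not tested. The 4 whose interval reached past 1 log2 unit were Mbnl2, Rbfox2, Nova2 and Rbm24. The median absolute difference between groups was 0.12 for the members and 0.17 for all genes. The difference was wider than both replicate gaps in 3 members, Mbnl2, Rbfox2 and Tia1, or 8.82%, against 19.1% of all genes. Whether replicate arrays stand for separate cultures is not stated in the labels, and the p-values reflect sample-to-sample spread that may be only technical. In bulk RNA, fewer cells that express a gene and less RNA per cell cannot be told apart.

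**Figure D1:**
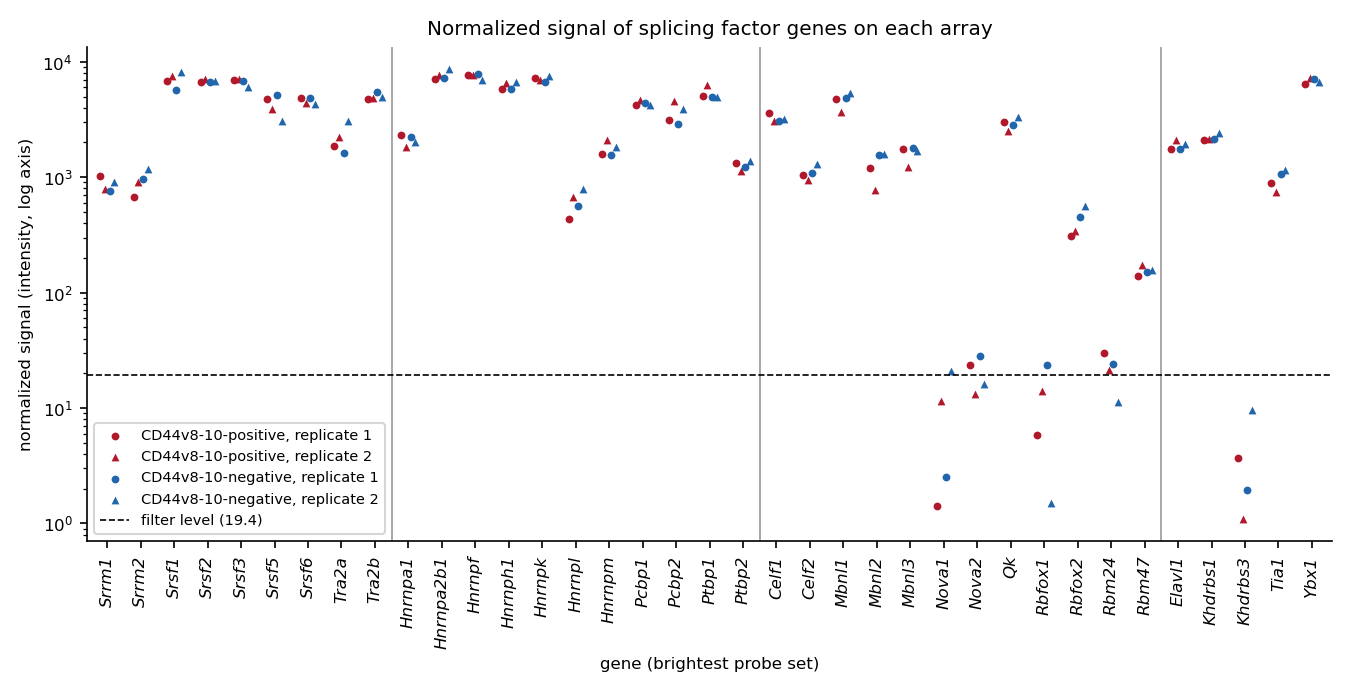
Normalized signal on a log axis of the 37 genes with a probe set of their own, on each of the 4 arrays (red, positive; blue, negative; circles, replicate 1; triangles, replicate 2), with vertical lines between role groups and the filter level of 19.4 dashed. Levels of different genes are not comparable, since each probe set has its own response; within most genes the red and blue symbols overlap, and Rbfox1, Nova1, Khdrbs3, Nova2 and Rbm24 lie at or below the filter on at least 1 array.

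The SR proteins and their coactivators, which promote exon inclusion, gave 0 calls among 9 genes tested. Of these 6 were above 0 and 3 below, and the median log2 difference was 0.031. Srsf1, the founding SR protein, had signals of 6755 and 7466 on positive against 5718 and 8119 on negative arrays. The positive values lay between the negative ones, and the log2 difference was 0.060 (95% interval -0.30 to 0.42). Tra2b, an SR-like activator linked to Cd44 variant exons, had 4771 and 4829 in CD44v8-10-positive cells and 5507 and 4949.6 in CD44v8-10-negative cells. Both positive arrays were lower, but by a log2 value of 0.12 on average, no more than the gap between the negative arrays (limma adjusted p 0.985). Srsf3, which also acts in mRNA export, had 6908 and 7032 in positive cells against 6810.1 and 6015 in negative cells, so the groups were separated with a log2 difference of 0.12 (interval -0.17 to 0.42).

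Srrm2, a large scaffold of the catalytic spliceosome, had the lowest difference in this group. Its signals were 668 and 916 on positive against 968 and 1176 on negative arrays, all positive below all negative. The log2 difference was -0.44 ± 0.22 (SE, limma unadjusted p 0.0678, adjusted p 0.985), and it was -0.21 without positive replicate 1 and -0.67 without positive replicate 2. A second Srrm2 probe set gave -0.86, the lowest of any splicing factor probe set, and the third gave 0.048 with overlapping groups. The partner coactivator Srrm1 had a log2 difference of 0.11, and its 6 probe sets above the filter ran from -0.73 to 0.40. The remaining SR proteins, Srsf2, Srsf5 and Srsf6, had log2 differences of 0.022 to 0.12 with overlapping signals. All 4 Srsf6 probe sets above the filter lay above 0, from 0.022 to 0.26, and 2 of them had separated groups. Tra2a, the paralog of Tra2b, had signals of 1857 and 2219 in CD44v8-10-positive cells and 1620.0 and 3094 in CD44v8-10-negative cells, and its log2 difference of -0.14 was smaller than the gap of 0.93 between the negative arrays. Its 5 probe sets above the filter ran from -0.76 to 0.49, with 2 separated lower and 1 separated higher.

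The hnRNPs, with the polypyrimidine tract and poly(C)-binding proteins, were the group with the narrowest range at the brightest probe sets. All 11 listed were tested, with 6 above 0, 5 below and a median log2 difference of 0.0057, and the intervals of all 11 lay within 1 log2 unit of 0. Hnrnpm, which opposes ESRP1 at Cd44 variant exons in human mammary cells, had signals of 1597 and 2113 in positive cells against 1544 and 1840.1 in negative cells. The groups overlapped, and the log2 difference was 0.12 (interval -0.31 to 0.55). Hnrnpa1, a repressor of many alternative exons, had 2341 and 1834 on positive against 2221 and 2017 on negative arrays, with the negative values inside the positive range. Its log2 difference was -0.030 (interval -0.43 to 0.37).

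Ptbp1, the polypyrimidine tract-binding protein that represses neuronal exons, had signals of 5025 and 6237 in CD44v8-10-positive cells and 4968 and 4914 in CD44v8-10-negative cells. All positive lay above all negative, yet replicate 1 of the positive arrays exceeded the negative arrays by little, and the log2 difference was 0.18 ± 0.15 (SE, limma adjusted p 0.985). All 3 Ptbp1 probe sets above the filter lay above 0, from 0.047 to 0.92. The neuronal paralog Ptbp2 had -0.091 (interval -0.51 to 0.32). Pcbp1, which represses Cd44 variant exons in human cells, had 4232 and 4651 in positive cells against 4424 and 4213 in negative cells, a log2 difference of 0.039 (interval -0.28 to 0.36). Pcbp2 had 0.17, with a gap of 0.54 between its positive arrays.

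Hnrnpl, which binds CA-rich repeats, had the lowest difference of these genes. Its signals were 433 and 674 on positive against 566 and 795 on negative arrays. Replicate 2 was higher than replicate 1 in both groups, and the groups overlapped (log2 difference -0.30, interval -0.86 to 0.26). Without positive replicate 1 the value was 0.0073, and without positive replicate 2 it was -0.62. The remaining members, Hnrnpa2b1, Hnrnph1, Hnrnpf and Hnrnpk, had log2 differences of -0.097 to 0.052, and each had overlapping groups at its brightest probe set. All 4 Hnrnpf probe sets above the filter lay above 0, from 0.041 to 0.21. All 4 of Hnrnpk did too, from 0.0057 to 1.14, and 2 of them had separated groups. The probe sets of Hnrnpa2b1 and of Hnrnph1 gave both signs.

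**Figure D2:**
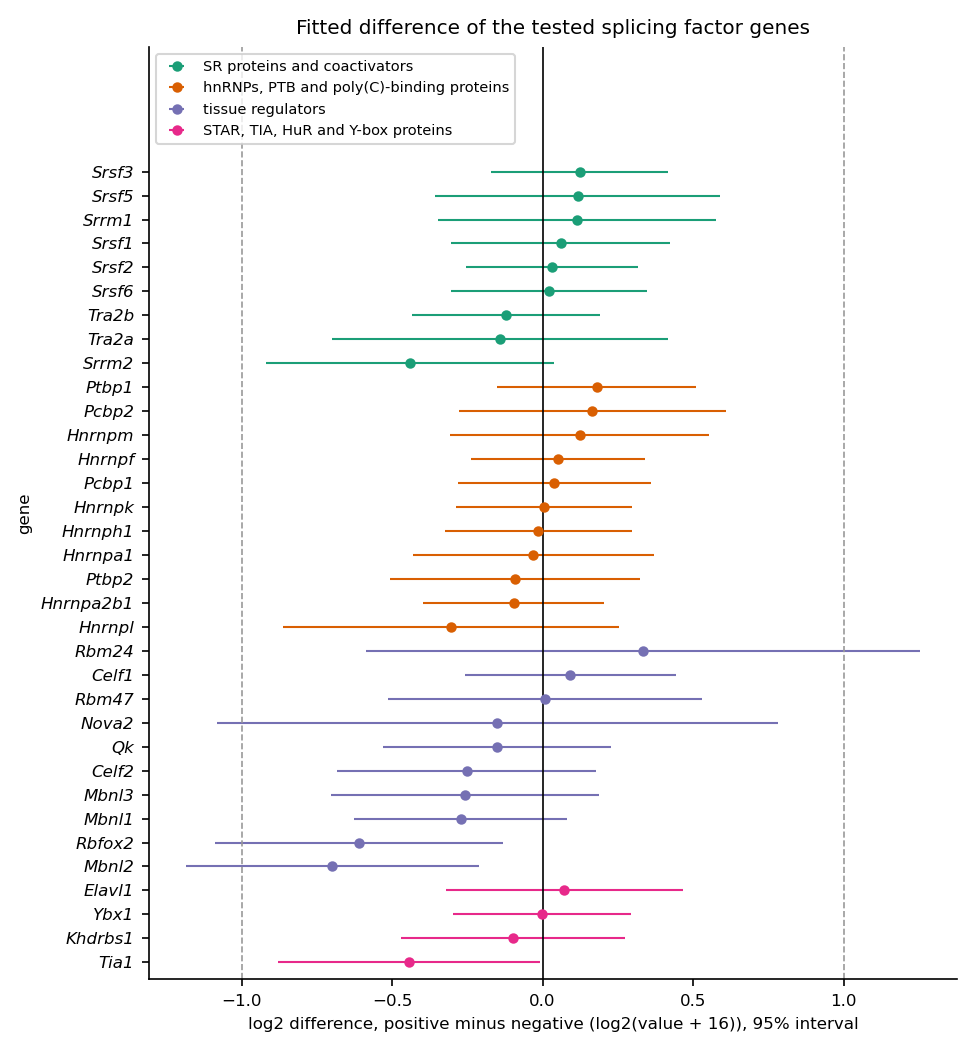
Fitted log2 difference (positive minus negative, log2(signal + 16)) of the 34 tested genes with its 95% interval, coloured by role group, with dashed lines at 1 log2 unit on either side of 0. The hnRNP intervals all lie within the dashed lines, and the intervals of Mbnl2, Rbfox2 and Tia1 are those that do not reach 0.

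The tissue regulators held the lowest values and, in the dim Rbm24, also the highest. Of 12 listed, 10 were tested, 7 lay below 0 and 3 above, where 5468 of all 11956 genes lay below 0. These counts include Nova2 below 0 and Rbm24 above. Each passed the filter only through the group where it was higher, so their directions support nothing. The 7 include the 3 Mbnl paralogs. The median log2 difference was -0.20, and 0 passed by limma. Mbnl2, a muscleblind protein that binds YGCY motifs and promotes adult splicing patterns, had signals of 1199 and 769.6 in CD44v8-10-positive cells and 1558 and 1580.5 in CD44v8-10-negative cells. Both positive arrays were lower, and the log2 difference was -0.70 ± 0.22 (SE; interval -1.19 to -0.21, limma unadjusted p 0.00876, adjusted p 0.919). Its paralog Mbnl1 had 4763 and 3708 in positive cells against 4815 and 5359 in negative cells. The groups were separated, although positive replicate 1 was close to negative replicate 1, and the log2 difference was -0.27 (interval -0.63 to 0.082). The third paralog, Mbnl3, had 1751 and 1226 on positive against 1807 and 1703 on negative arrays, which overlapped, with a log2 difference of -0.26 (interval -0.70 to 0.19).

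Positive replicate 2 was the lowest array for each of the Mbnl genes. Without it the log2 differences were -0.38 for Mbnl2, -0.093 for Mbnl1 and -0.0039 for Mbnl3, and without positive replicate 1 they were -1.002, -0.45 and -0.51. Of the 11 Mbnl probe sets above the filter, which share their genes and arrays, 10 lay below 0, where 13506 of all 27022 probe sets did. The exception was a dim Mbnl2 probe set at 0.62, with 65.3 and 89.0 in CD44v8-10-positive cells and 46.1 and 42.3 in CD44v8-10-negative cells. The other 4 Mbnl2 probe sets gave -0.70 to -0.25, and with the mean of all 5 the log2 difference of Mbnl2 was -0.22.

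Rbfox2, which binds GCAUG and promotes mesenchymal splicing patterns in epithelial-mesenchymal transition, had signals of 307 and 344 in positive cells against 455 and 561 in negative cells. The groups were separated, with a log2 difference of -0.61 ± 0.22 (SE; interval -1.09 to -0.13, limma unadjusted p 0.0166, adjusted p 0.985). Its 3 other probe sets gave -0.0045, 0.034 and 0.15 with overlapping groups, and the mean of the 4 was -0.11. The value of the brightest probe set was -0.47 to -0.82 under the other scalings, filters and pseudocounts and with any 1 array left out.

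Qk, the quaking protein that regulates exon choice and circular RNA formation in mesenchymal transition, had signals of 3022 and 2499.7 on positive against 2811 and 3325 on negative arrays. The groups overlapped, with a log2 difference of -0.15 (interval -0.53 to 0.23), while all 7 of its probe sets lay below 0, from -0.31 to -0.086. Rbm47, an epithelial RNA-binding protein, had 139.5 and 174 in CD44v8-10-positive cells and 152 and 158 in CD44v8-10-negative cells, with the negative values inside the positive range. Its log2 difference was 0.0078 (interval -0.51 to 0.53), and a second probe set gave -0.69.

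Celf1, which binds GU-rich RNA and often opposes MBNL proteins, had signals of 3585 and 3073 in positive cells against 3053 and 3176 in negative cells, a log2 difference of 0.092 (interval -0.26 to 0.44) with overlapping groups. Its 5 probe sets above the filter ran from -0.30 to 0.36, with 1 separated lower and 1 separated higher. Celf2 had 1039 and 951 on positive against 1079 and 1306 on negative arrays. Its groups were separated by a log2 difference of -0.25 (interval -0.68 to 0.18), and its 3 probe sets above the filter all lay below 0. Rbm24, known from heart and skeletal muscle, had 30.2 and 21.4 in CD44v8-10-positive cells and 23.9 and 11.2 in CD44v8-10-negative cells, close to the filter level, and the interval of its log2 difference of 0.33 ran from -0.59 to 1.25. Nova2, known from neurons, had 23.6 and 13.2 in positive cells against 28.1 and 16.2 in negative cells, with 2 arrays below the filter level. The mean signal of Rbm24 in negative cells (17.6) and that of Nova2 in positive cells (18.4) lay under the filter level of 19.4.

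Among the STAR, TIA, HuR and Y-box proteins, 4 of 5 were tested; 1 was above 0 and 3 below, with a median log2 difference of -0.050. Khdrbs1, the Ras-responsive activator of Cd44 variant exons known as SAM68, had signals of 2095 and 2150.3 on positive against 2127 and 2432 on negative arrays. The groups overlapped, and the log2 difference was -0.099 (interval -0.47 to 0.27), with its 6 probe sets above the filter between -0.14 and 0.065. Ybx1, the Y-box protein YB-1, had 6466 and 7222 in CD44v8-10-positive cells and 7063 and 6627 in CD44v8-10-negative cells, with the negative values inside the positive range. Its log2 difference was -0.0016 (interval -0.30 to 0.29), and its 3 probe sets gave -0.040 to -0.0016. Elavl1, the mRNA-stabilising protein HuR, had 0.073 (interval -0.32 to 0.47).

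Tia1, which binds U-rich RNA next to weak 5′ splice sites, was the third gene with an unadjusted p under 0.05. Its signals were 886 and 739.8 in positive cells against 1060.4 and 1158 in negative cells, with all positive below all negative. The log2 difference was -0.44 ± 0.20 (SE; interval -0.88 to -0.010, limma unadjusted p 0.0456, adjusted p 0.985). Of its 6 probe sets above the filter, 5 lay below 0 and 3 had separated groups in that direction, while 1 gave 0.33. With the mean of all 6 the value was -0.22.

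**Figure D3:**
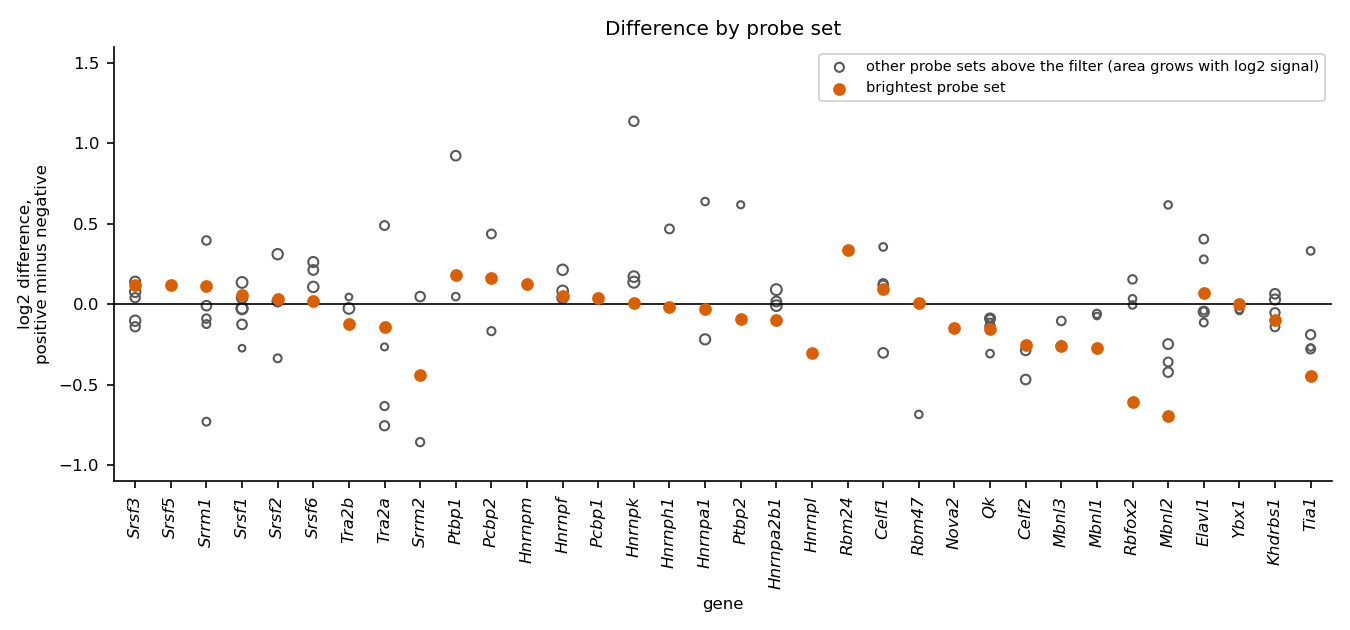
Log2 difference (positive minus negative) of each of the 122 splicing factor probe sets above the filter, by gene, with the brightest probe set of each gene filled. Probe sets of one gene spread by up to 1.32, in Mbnl2, and the filled points of Rbfox2, Mbnl2 and Tia1 lie at or near the lower edge of their gene's range.

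The 3 members below the filter gave signals under the filter level on at least 3 of the 4 arrays. Rbfox1, a neuronal and muscle paralog of Rbfox2, had 5.88 and 14 on positive against 23.4 and 1.5 on negative arrays. Nova1, a neuronal regulator, had 1.43 and 11.4 in CD44v8-10-positive cells and 2.50 and 20.8 in CD44v8-10-negative cells. Khdrbs3, the SAM68-like protein SLM2 of brain and testis, had 3.70 and 1.10 in positive cells against 1.95 and 9.70 in negative cells. For each of them the replicates of at least 1 group differed by more than the group means did, and no fold is given. The markers of neurons and muscle checked beside them were low too: 2 of 6 neuronal markers, Map2 and Syt1, and 4 of 6 muscle markers passed the filter. Summed over each list, the neuronal markers came to 177 to 229 and the muscle markers to 98.9 to 151 per array. The 6 epithelial tumour cell markers, among them Krt8, Krt18 and Cdh1, all passed the filter and summed to 24628 to 31311. Within that sum Epcam, at 2309 and 2479 on positive against 940.2 and 930.2 on negative arrays, and Krt14, at 681 and 831 against 218 and 149, were separated and higher in positive cells, whereas Krt8, Krt18 and Cdh1 overlapped. Fibroblast markers (3 of 6 above the filter) summed to 143 to 183. Leukocyte markers (4 of 6, with Ptprc below it) summed to 272 and 399 in positive and 249 and 227 in negative cells, and endothelial markers (0 of 5) to 86.6 and 91.6 against 41.8 and 45.6. Their part in the differences of the splicing factors was not tested.

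Most genes with more than 1 probe set above the filter gave both signs. The exceptions, with a single sign each, were Celf2, Hnrnpf, Hnrnpk, Mbnl1, Mbnl3, Ptbp1, Qk, Srsf6 and Ybx1. Of the 122 probe sets above the filter, 67 lay below 0 and 55 above, with a median of -0.025. With each probe set tested on its own, 0 of 122 passed by limma (lowest adjusted p 0.959). At an unadjusted p under 0.05 by limma, 4 of the 122 were lower and 1 higher, where the background was 4.61% of all probe sets in either direction. A Hnrnpk probe set had the highest difference, 1.14, from signals of 300.5 and 1448 on positive against 285 and 301 on negative arrays. One of Ptbp1 had 0.92, from 531 and 1581 in CD44v8-10-positive cells and 551 and 412 in CD44v8-10-negative cells. In both, positive replicate 2 alone stood high, and the brightest probe set of Hnrnpk gave 0.0057.

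Other genes of the splicing machinery gave no call either. Of 97 listed, 83 were tested. Their median log2 difference was 0.014, with 44 above 0 and 39 below, and 0 passed by limma, with 1 higher and 1 lower at an unadjusted p under 0.05 (2.41%, against 4.45% of all genes). The core spliceosome had 24 of 42 above 0, a median of 0.038, and 0 genes at an unadjusted p under 0.05. The kinases and importers of SR proteins had 7 of 9 below 0 and a median of -0.070. Further SR, hnRNP and related RNA-binding proteins had 18 of 32 above 0 and a median of 0.014. Rbm39, a U2AF-like splicing factor, was the lower gene, with 2004 and 1968 in positive cells against 2773 and 2441 in negative cells, a log2 difference of -0.39 (limma unadjusted p 0.0409, adjusted p 0.985). The higher gene was Khdrbs2, a paralog of SAM68, at 29.6 and 45.6 in positive cells and 12.4 on both negative arrays. It passed the filter level of 19.4 through the positive arrays alone, so its count as higher supports nothing and no fold or p is given for it.

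For scale, Esrp1, the epithelial regulator left out of the list, had 1348 and 1365 on positive against 64.1 and 30.9 on negative arrays, a log2 difference of 4.48 (interval 3.90 to 5.07, limma adjusted p 1.03e-05). The interval of every tested splicing factor lay below it. The highest upper bound was 1.25, for Rbm24, which passed the filter only through its positive arrays. Esrp2 had 0.64 (interval 0.14 to 1.14, limma adjusted p 0.985) and Cd44 itself 0.11 (interval -0.26 to 0.48).

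**Figure D4:**
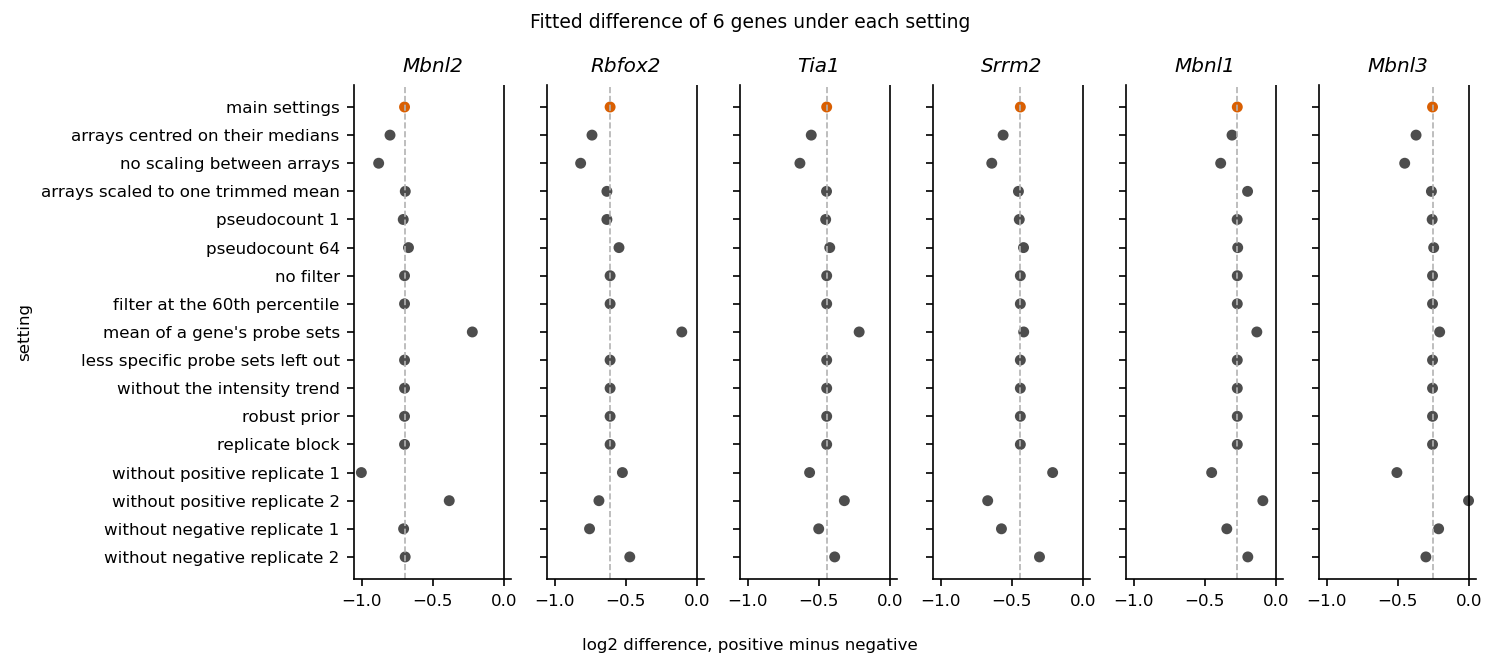
Log2 difference (positive minus negative) of Mbnl2, Rbfox2, Tia1, Srrm2, Mbnl1 and Mbnl3, the lowest among genes with more than 1 probe set above the filter, under the main settings (orange, dashed line) and each of 16 alternatives. All values lie below 0; that of Mbnl3 is -0.0039 without positive replicate 2, and averaging the probe sets of a gene moves Rbfox2 to -0.11 and Mbnl2 to -0.22.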

How the data were processed

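The deposited values were linear intensities, 1 per probe set and array for 45101 probe sets, and the submitters' processing notes name GCOS without a role. How the authors summarised, background-corrected or scaled them is not given in the sources used here. Array brightness differed (2% trimmed means of 196 to 345), so the arrays were quantile normalized, and signals were used as log2(value + 16). Gene symbols came from the platform annotation, which gave 34945 probe sets 1 symbol each. The 64 control probe sets and those below the 40th percentile of mean signal were left out, which left 27022, and the brightest probe set per gene was used. Groups, taken from the sample titles, were compared with limma 3.58.1 under R 4.3.3 (eBayes with an intensity trend, Benjamini-Hochberg over all 11956 genes, threshold 0.05). The procedure was tested on simulated data, where recovery was required only for changes larger than the difference of any member. Alternatives were other scalings, pseudocounts, filters, probe set rules, variance models, a block on replicate number, and the omission of single arrays. All 38 members were named. Signals on every array were given for those with separated groups at an unadjusted p under 0.05, those linked to Cd44 exon choice or to epithelial and mesenchymal splicing, and those below the filter; further ones were chosen after their values were seen. The members, lists and tests were chosen with earlier results of these data known.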

Additional observations from a re-analysis of the deposited data

How the results depend on the processing

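No splicing factor passed the test under the main settings or any of 16 alternatives, nor with each probe set tested separately, a setting chosen after seeing the data. The lowest adjusted p of a member was 0.165, for Mbnl2 without positive replicate 1 (limma). In the alternatives that kept all 4 arrays, 0 to 4 members were lower and 0 higher at an unadjusted p under 0.05 by limma. The background in these ran from 0.678% to 6.43% of all genes. The 4 came with the replicate number as a block, where the background was 6.43%. Leaving out an array leaves 1 in its group, which is assumed to vary like the others. The members' median ran from -0.12 with no scaling, where 28 of 33 members lay below 0, to 0.059 with arrays scaled to a common trimmed mean. These shifts lay within the spread of the members' array medians, 0.17. That bound is wider than their median absolute difference of 0.12, so it says little about stability. In every setting 0 related splicing genes passed. With no scaling between arrays the median of all genes was -0.15 and the members' median lay 0.034 above it. The number of genes past the threshold in the whole table, 9, became 25 with arrays centred on their medians, 3 with no scaling, 3 with no filter, 2 without the intensity trend, 18 with the replicate number as a block, and 6 to 21 with 1 array left out. The block left 0 members past the threshold. The labels tie no arrays of the same number, and the deviations of same-numbered arrays correlated at 0.12 over all genes and 0.50 over the members, among which positive replicate 1 and negative replicate 1 were the closest arrays (mean absolute log2 gap 0.15, against 0.26 between the positive and 0.24 between the negative arrays).

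Of the 34 tested members 12 kept their direction in every alternative in which they were tested (Rbm24 was not tested with the filter at the 60th percentile), among them Mbnl1, Mbnl2, Mbnl3, Rbfox2, Tia1, Srrm2, Celf2 and Qk below 0 and Srsf3 and Ptbp1 above. A kept direction is not a kept size: with 1 array left out the value nearest 0 was -0.014 for Qk, 0.024 for Ptbp1, 0.035 for Srsf3, -0.041 for Tra2b, 0.054 for Rbm24 and -0.12 for Celf2. The kept direction of Rbm24 supports nothing, since it passed the filter only through the group where it was higher. The other 22, none of them called, changed sign in at least 1, giving 63 of 539 values, and the cause was not tested. With arrays centred on their medians the values were -0.15 for Rbm47, -0.015 for Srsf6, -0.036 for Elavl1 and -0.0044 for Pcbp1. With no scaling they were -0.066 for Celf1, -0.23 for Rbm47, -0.058 for Srsf2, -0.036 for Srsf5, -0.095 for Srsf6, -0.065 for Hnrnpm, -0.043 for Hnrnpf, -0.060 for Hnrnpk, -0.070 for Srrm1, -0.12 for Elavl1 and -0.084 for Pcbp1, and with one trimmed mean -0.047 for Rbm47, 0.046 for Hnrnpa2b1, 0.090 for Hnrnph1 and 0.082 for Ybx1. With the probe sets of a gene averaged they were 0.26 for Ptbp2, -0.34 for Rbm47, -0.031 for Srsf1, 0.13 for Hnrnpa1, 0.00070 for Hnrnpa2b1, 0.23 for Hnrnph1 and -0.074 for Srrm1, and with the less specific probe sets left out 0.029 for Khdrbs1, -0.34 for Srsf2 and -0.0089 for Srrm1. With 1 array left out the log2 differences that changed sign ran as follows: Celf1 -0.019 to 0.19, Elavl1 -0.054 to 0.20, Hnrnpa1 -0.21 to 0.14, Hnrnpa2b1 -0.21 to 0.034, Hnrnpf -0.049 to 0.14, Hnrnph1 -0.11 to 0.087, Hnrnpk -0.087 to 0.11, Hnrnpl -0.62 to 0.0073, Hnrnpm -0.076 to 0.32, Nova2 -0.37 to 0.080, Pcbp1 -0.027 to 0.11, Pcbp2 -0.10 to 0.43, Ptbp2 -0.20 to 0.018, Rbm47 -0.14 to 0.15, Srrm1 -0.057 to 0.29, Srsf1 -0.18 to 0.33, Srsf2 -0.015 to 0.083, Srsf5 -0.25 to 0.48, Srsf6 -0.058 to 0.10, Tra2a -0.60 to 0.33, Ybx1 -0.081 to 0.077. The 2 arrays per group and signals near the filter level, as for Nova2 and Rbm24, limit the precision.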
